A study of Mus musculus with 4 samples.

Results

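The 10 genes described here, Scx, Tnmd, Mkx, Fmod, Thbs4, Comp, Sox9, Acan, Prg4 and Htra4, mark tendon, joint and cartilage, and were chosen by gene symbol from the 33696 genes in the deposited tables. They were followed across cell classes in 4 droplet-based scRNA-Seq libraries (10x Genomics 3′ chemistry) of amputated mouse digits. For the SAR131675 library, mice ate chow carrying this VEGFR3 inhibitor (30 mg/kg, 8 days by the labels), and for the control diet library they ate chow without it. By the methods the inhibitor was already given before the amputation and not stopped afterwards, which makes a longer exposure than the labels state. The LNR library came from mice whose draining lymph nodes were surgically removed, and the sham library from the opposite limb, whose label records no treatment. The 4 groups shared female C57BL/6 mice of 6 to 8 weeks, amputation through the tip of digits 2 and 4, and pooling of digits from 10 mice into 1 library. The dissected tissue ran from the middle phalanx to the tip, so an uninjured joint and the insertions of the digit tendons could enter each library together with the injury site, and the unamputated digit 3 was included.

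Each condition was 1 library and the labels give each library a batch number of its own, so that treatment and batch cannot be told apart and no test between conditions was possible. The intervals given are at 95% and cover counting error only. The tables held 38464 barcodes for SAR131675, 30831 for control diet, 21669 for LNR and 22539 for sham, of which 29076, 24030, 19827 and 20669 were kept. Median depth in kept cells was 11316 and 10712 UMIs (unique molecular identifiers, 1 for each captured transcript) in the diet pair and 5725 and 5851 UMIs in the LNR pair. SAR131675 and control diet shared 210 kept barcodes, LNR and sham shared 101, and libraries of different pairs shared at most 2. In the LNR pair, a hair-type cluster led by Krt71, S100a3 and Krt25 held 3 LNR and 384 sham cells and was left unnamed. Hair-type cells were uneven in the diet pair too, where an unnamed cluster led by Krt25, Krt35 and Krt71 held 1211 SAR131675 and 442 control diet cells. All 10 genes passed the limit of 100 UMIs in both pairs, with 3095 UMIs (Mkx) to 3798950 UMIs (Prg4) over the 4 libraries.

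Tendon cells arise from progenitors that express scleraxis (Scx), a basic helix-loop-helix transcription factor, and keep their identity with the homeobox factor mohawk (Mkx). They then make tenomodulin (Tnmd), a membrane glycoprotein of mature tendon, and the matrix proteins fibromodulin (Fmod), which binds collagen and controls fibril growth, thrombospondin 4 (Thbs4) and cartilage oligomeric matrix protein (Comp). Cartilage is specified by Sox9, which activates Acan, the gene of the large proteoglycan aggrecan, and the joint surface and its synovial lining secrete lubricin, the product of Prg4. Htra4 belongs to the HtrA family of secreted serine proteases. Sox9 is also known from outer root sheath and stem cells of the hair follicle, which are present in digit skin.

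Of the 10 genes, Fmod and Thbs4 followed each other most closely across named cell classes, and Tnmd and Acan shared an unnamed mesenchymal cluster. Promoter sequences were found for these 4 genes in the RefSeq table (GRCm38.p6), where the chromosome of Mkx was left out, and all 4 are shown. Each is the 250 bases upstream of the start, 5′ to 3′ on the gene's strand, with E-box letters (CANNTG, the core read by basic helix-loop-helix factors such as Scx, the same on both strands) in capitals.
Tnmd, chrX:133850758-133851007, plus strand: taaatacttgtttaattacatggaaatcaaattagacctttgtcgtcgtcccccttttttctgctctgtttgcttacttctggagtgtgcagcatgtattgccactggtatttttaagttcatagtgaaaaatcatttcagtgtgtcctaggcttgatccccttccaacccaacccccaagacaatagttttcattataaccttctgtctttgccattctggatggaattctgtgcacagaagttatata
Fmod, chr1:134037004-134037253, plus strand: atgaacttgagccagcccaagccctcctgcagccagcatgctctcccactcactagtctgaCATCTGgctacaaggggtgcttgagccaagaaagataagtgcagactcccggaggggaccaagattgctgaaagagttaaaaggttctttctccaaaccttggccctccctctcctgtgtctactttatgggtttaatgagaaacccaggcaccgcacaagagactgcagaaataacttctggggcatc
Thbs4, chr13:92794819-92795068, minus strand: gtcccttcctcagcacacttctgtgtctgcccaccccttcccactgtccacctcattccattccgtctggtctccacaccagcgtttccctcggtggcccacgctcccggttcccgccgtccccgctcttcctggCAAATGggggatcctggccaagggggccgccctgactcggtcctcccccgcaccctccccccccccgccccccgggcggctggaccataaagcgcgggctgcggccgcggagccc
Acan, chr7:79052976-79053225, plus strand: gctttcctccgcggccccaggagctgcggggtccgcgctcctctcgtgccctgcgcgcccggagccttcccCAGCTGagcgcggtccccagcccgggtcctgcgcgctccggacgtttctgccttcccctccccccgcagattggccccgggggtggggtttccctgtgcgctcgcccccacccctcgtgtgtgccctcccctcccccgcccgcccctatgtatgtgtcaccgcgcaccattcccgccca
Fmod, Thbs4 and Acan each held 1 match to the E-box letters, and Tnmd held 0. Of all 32851 promoters of the table, 66.2% held at least 1 match in the same window, so that a match was common. The letters ACAAT (searched on both strands), a core of SOX sites, occurred once in Tnmd and in none of the other windows shown, against 27.7% of all promoters. GC content was 38.4% for Tnmd, 51.2% for Fmod, 70.8% for Thbs4 and 74.4% for Acan.

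Clusters were named from marker lists that held none of the 10 genes, and the 10 genes were left out of clustering, so that their levels did not define the classes. Mesenchymal cells numbered 4530 in SAR131675, 3915 in control diet, 5895 in LNR and 5332 in sham. Tenocyte-like cells (557, 537, 386 and 412 in the same order) were mostly led by Angptl7 with Cilp2 or Epyc, and in a smaller diet sub-cluster by Tmem255b with Kera behind it, chondrocyte-like cells (90, 90, 117 and 79) by Col10a1, Snorc and Msmp, synovial lining-like cells (392, 344, 651 and 660) by Clic5 and Col22a1, and osteoblast-like cells (188, 120, 227 and 173) by Bglap, Bglap2 and Ibsp, with Mmp13 ahead of them in the diet pair. Mesenchymal clusters that met no name are called by their leading genes. Levels are compared between classes and libraries, not between genes. The pairs were clustered separately and differ in depth, so that a class of 1 pair need not hold the same cells as the class of that name in the other. Matrix headers also name Cell Ranger 8.0.1 for the diet pair and 6.1.2 for the LNR pair. In mesenchymal cells Sox5 stood at 292.5 and 310.5 CPM (UMIs per 1000000 UMIs) in SAR131675 and control diet but 61.5 and 69.9 CPM in LNR and sham. Bgn went the other way, at 984 and 1043 against 1383 and 1338 CPM. The part of the version, and of any counting of intron reads, in differences of level between the pairs was not tested. In the diet pair a cluster of 548 and 468 cells with keratinocyte genes, and a second of 21 and 31 with erythroid genes, were kept apart as mixed.

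**Figure D1:**
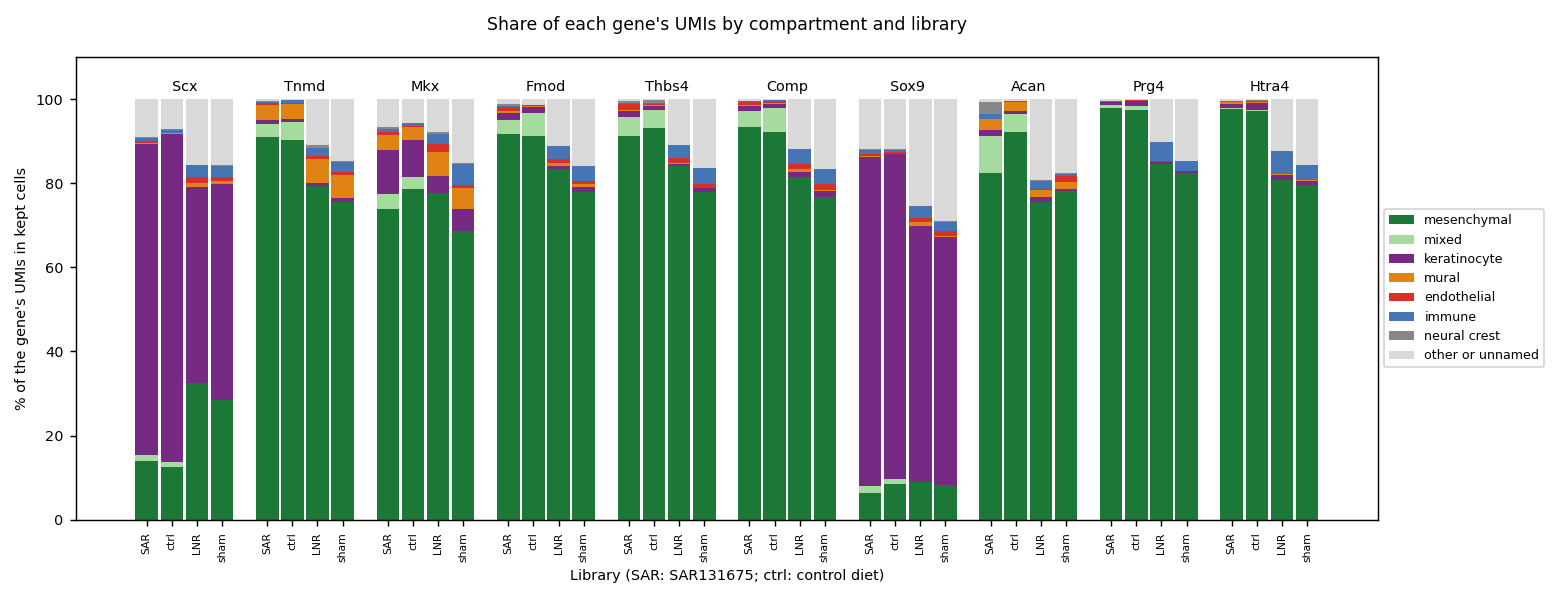
Stacked bars give the percentage of each gene's UMIs in kept cells that fell in each compartment, with 1 bar per library (SAR, SAR131675; ctrl, control diet). Mesenchymal cells hold most UMIs of 8 genes, while keratinocyte clusters hold 46.8% to 78.1% of Scx and 58.9% to 78.4% of Sox9.

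In all 4 libraries 8 of the 10 genes had most of their UMIs in mesenchymal cells, and Scx and Sox9 had not. The mesenchymal share of Fmod UMIs was 91.8%, 91.2%, 83.3% and 77.9% in SAR131675, control diet, LNR and sham. For Tnmd it was 90.9%, 90.2%, 79.3% and 75.6%, and for Mkx, the gene with the fewest UMIs, 73.9%, 78.6%, 77.7% and 68.7%. Prg4 and Htra4 lay furthest on this side in the diet pair, at 97.9% and 97.5% for Prg4 and 97.6% and 97.2% for Htra4. Part of the lower mesenchymal share in the LNR pair sat in an unnamed cluster of 947 and 980 cells led by Msmp, Ecrg4 and Col2a1, which also carried genes of other compartments. That cluster held 9.96% and 12.3% of the Prg4 UMIs of LNR and sham.

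Scx, the transcription factor that marks tendon progenitors, had its largest number of UMIs in skin. Keratinocyte clusters held 73.8% of Scx UMIs in SAR131675, 78.1% in control diet, 46.8% in LNR and 51.4% in sham, and mesenchymal cells held 14.0%, 12.4%, 32.4% and 28.4%. Within keratinocytes it was concentrated in 1 cluster of each pair, led by Gm973, Lgr5 and Lhx2, genes known from the hair follicle. The level of Scx there, in UMIs of the gene per 1000000 UMIs of the class (CPM), was 50.8 (47.8 to 53.9) in SAR131675, 50.2 (46.5 to 54.3) in control diet, 68.5 (62.3 to 75.1) in LNR and 73.7 (67.2 to 80.7) in sham. Basal keratinocyte-like cells of the same libraries had 5.58, 5.20, 5.44 and 5.67 CPM of Scx, so that the difference between these keratinocyte classes lay well outside counting error. After each cell was thinned to 2000 UMIs, Scx was seen in 10.2%, 9.74%, 13.8% and 14.6% of the cells of that cluster and in 0.846%, 0.808%, 0.899% and 1.10% of basal keratinocyte-like cells.

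Scx overlaps the ribosome biogenesis gene Bop1, on the opposite strand, in the GENCODE annotation used. In that annotation Prg4 overlaps Tpr and Htra4 overlaps Gm16933 on the opposite strand, and Mkx overlaps AC148004.2 on the same strand, so that the Mkx counts are uncertain where reads come from the shared stretch. Bop1 stood at 16.5, 16.0, 15.1 and 16.2 CPM in the same follicle-type cluster of SAR131675, control diet, LNR and sham and at 22.8, 24.3, 17.9 and 20.7 CPM in basal keratinocyte-like cells. In mesenchymal cells, Scx was highest among named classes in tenocyte-like cells, at 24.1 (20.1 to 28.6) and 21.8 (17.8 to 26.3) CPM in SAR131675 and control diet and at 167 (145 to 191) and 155 (134 to 179) CPM in LNR and sham. In the LNR pair a small cluster led by Mmp13, Slpi and Il11 followed, with 51.8 and 74.1 CPM of Scx. Chondrocyte-like cells held only 1 to 4 Scx UMIs in any library. In the follicle-type cluster Scx and Sox9 were seen in the same cells about as often as the share of Sox9 alone. Of its thinned cells with a UMI of Scx, 74.9% in SAR131675 (182 of 243 cells), 64.5% in control diet, 65.1% in LNR and 75.3% in sham also had a UMI of Sox9, which itself was seen in 72.2%, 66.2%, 67.8% and 67.3% of the thinned cells of the cluster.

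**Figure D2:**
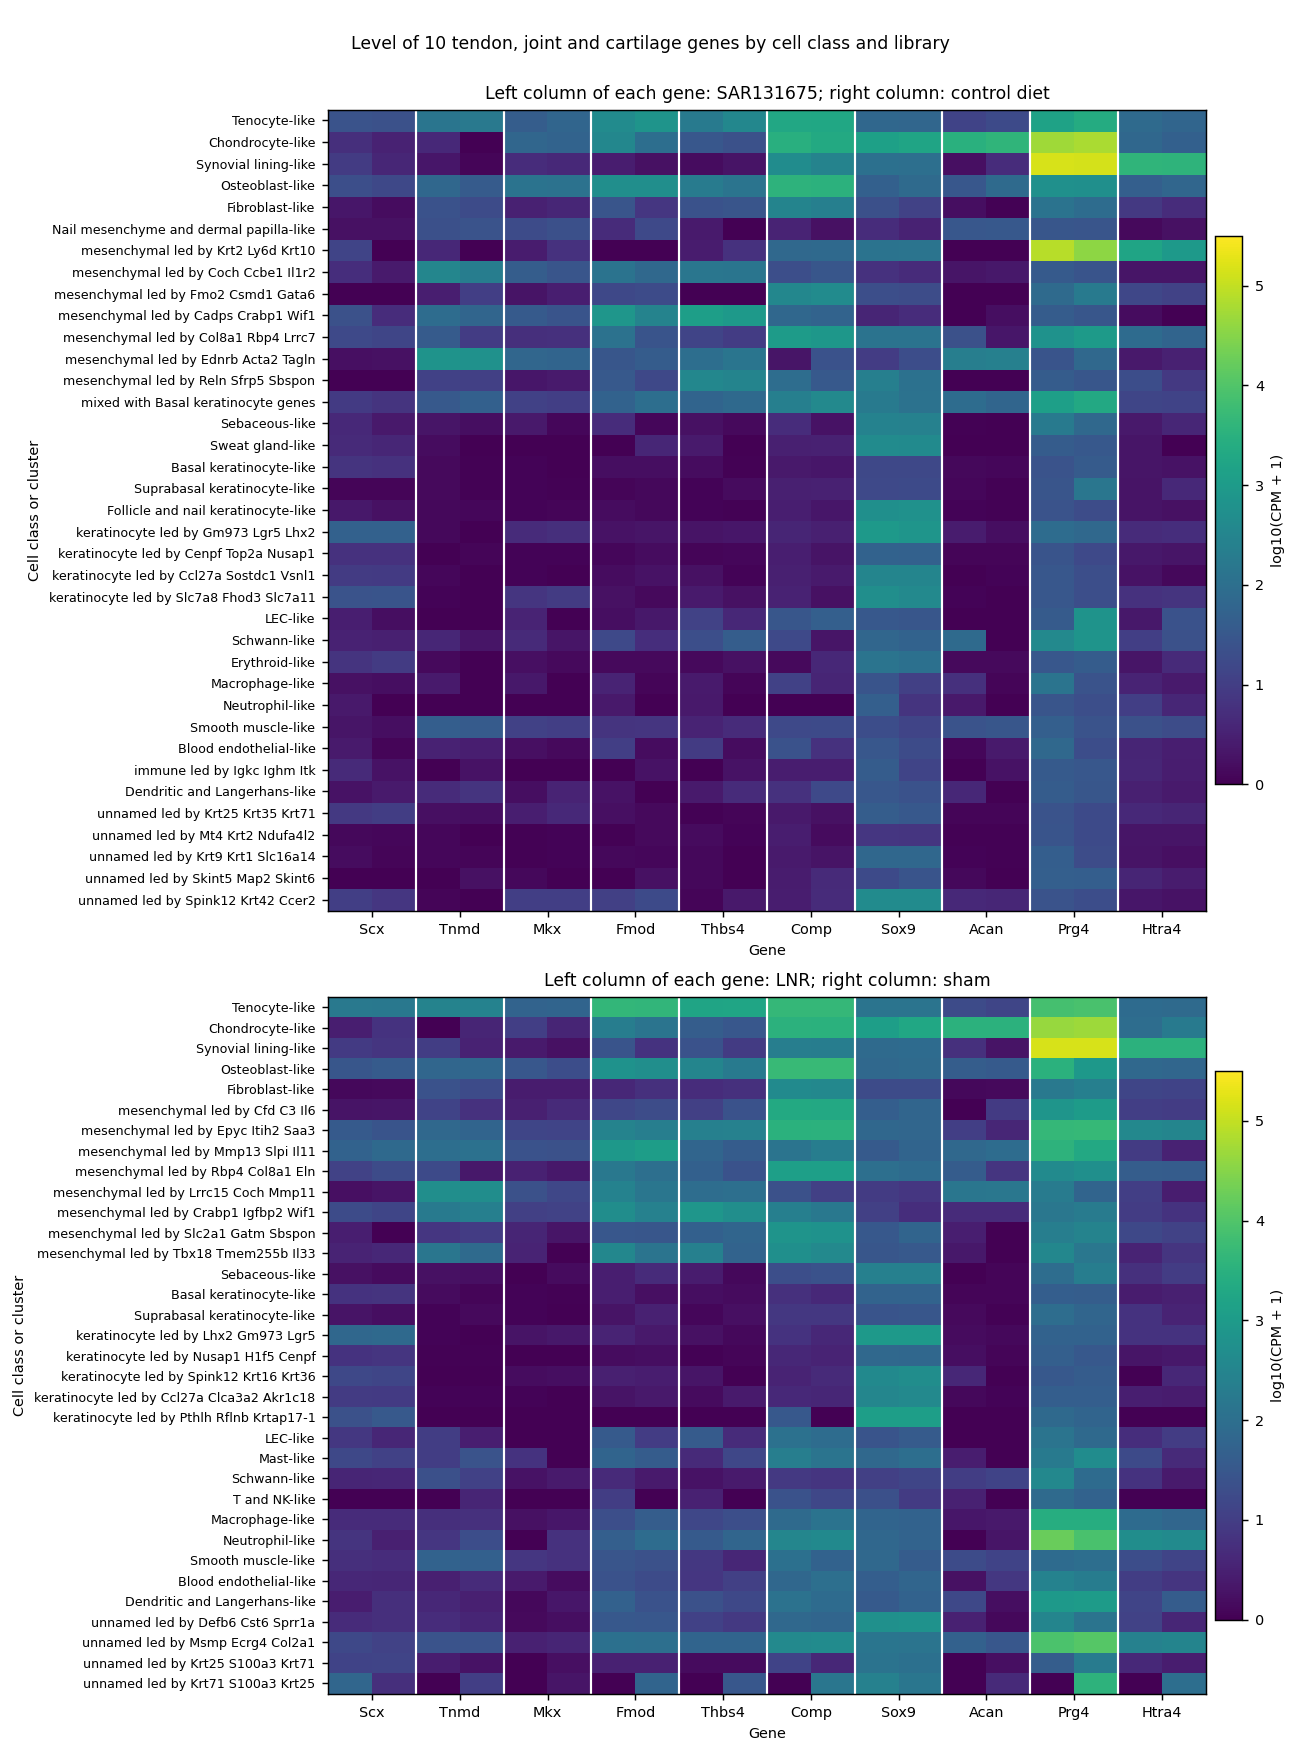
Heat maps show the level of each gene as log10(CPM + 1) in every class or cluster that reached 50 cells in at least 1 library of its pair, with the treated library in the left and its control in the right column of each gene. Prg4 and Htra4 stand out in synovial lining-like cells, Acan in chondrocyte-like cells, and Sox9 in chondrocyte-like and follicle-type keratinocyte rows.

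Mkx, which maintains tendon cells, was low in all libraries and did not have its highest level in the same class in both pairs. In the diet pair the osteoblast-like cells led, with 123 (106 to 141) and 116 (96.0 to 138) CPM of Mkx in SAR131675 and control diet, while tenocyte-like cells had 40.2 and 61.8 CPM. In the LNR pair tenocyte-like cells led, at 55.6 (43.2 to 70.5) CPM in LNR and 59.0 (46.2 to 74.3) CPM in sham, and osteoblast-like cells had 29.6 and 19.4 CPM. The chondrocyte-like cells had 63.1 and 56.8 CPM of Mkx in the diet pair but only 5 and 1 UMIs in LNR and sham. Thus the order of these classes differed between the pairs, whose classes of the same name need not hold the same cells. Counting intervals do not measure that difference. Kept cells held 1454 and 1035 Mkx UMIs in SAR131675 and control diet but 328 and 278 in LNR and sham. The part of the Cell Ranger version, which differed between the pairs, was not tested.

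Tnmd, the membrane glycoprotein of mature tendon, did not reach its highest level in tenocyte-like cells taken as a whole. In the diet pair a mesenchymal cluster of 218 and 116 cells led by Ednrb, Acta2 and Tagln had 661 (631 to 691) CPM of Tnmd in SAR131675 and 606 (566 to 650) CPM in control diet, with a Tnmd UMI in 92.7% and 83.6% of its cells. In the LNR pair a cluster of 303 and 255 cells led by Lrrc15, Coch and Mmp11 had 514 (477 to 553) and 500 (459 to 543) CPM in LNR and sham. Tenocyte-like cells had 136 and 170 CPM of Tnmd in the diet pair and 289 and 274 CPM in the LNR pair. The diet values joined unlike sub-clusters, given below, of which the smaller came close to the cluster led by Ednrb, Acta2 and Tagln. Keratinocyte clusters had 0.129 to 0.342 CPM and immune clusters 1.99 to 5.73 CPM. Barcodes with markers of at least 2 compartments made up 86.7%, 82.7%, 70.3% and 67.4% of kept cells in SAR131675, control diet, LNR and sham. Such a barcode needed only 3 marker UMIs in each of 2 compartments at any depth, so that these shares do not count mixed droplets. The part of free RNA and mixed droplets in such Tnmd levels was not tested. Another diet cluster, led by Coch, Ccbe1 and Il1r2, held 33.4% and 30.0% of all Tnmd UMIs of SAR131675 and control diet.

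The clusters with the highest Tnmd also carried Acan, with Sox9 and Comp at 1.04 to 23.1 CPM. In the cluster led by Ednrb, Acta2 and Tagln, Acan stood at 221 (204 to 239) CPM in SAR131675 and 249 (223 to 277) CPM in control diet, and in the cluster led by Lrrc15, Coch and Mmp11 at 144 (125 to 165) and 151 (129 to 176) CPM in LNR and sham. After thinning to 2000 UMIs, 18.8%, 21.6%, 7.84% and 8.17% of the cells of these clusters in SAR131675, control diet, LNR and sham had both Tnmd and Acan. Of the thinned cells with Acan, 67.2%, 72.7%, 51.3% and 45.9% had Tnmd, which was seen in 56.4%, 54.9%, 46.7% and 46.2% of all thinned cells of these clusters. In chondrocyte-like cells, by contrast, Tnmd had 0 to 3 UMIs in any library. Both clusters scored highest on fibroblast markers, at 0.418 in the diet pair, where tenocyte markers followed at 0.275, and at 0.393 in the LNR pair. The leading genes Acta2 and Tagln are known from contractile cells, but smooth muscle was not among the 3 highest scores of either cluster. Smooth muscle-like cells had 37.5 to 53.2 CPM of Tnmd. That class also scored high on pericyte markers, at 1.00 against 0.971 for smooth muscle in the diet pair and 0.928 against 1.00 in the LNR pair.

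**Figure D3:**
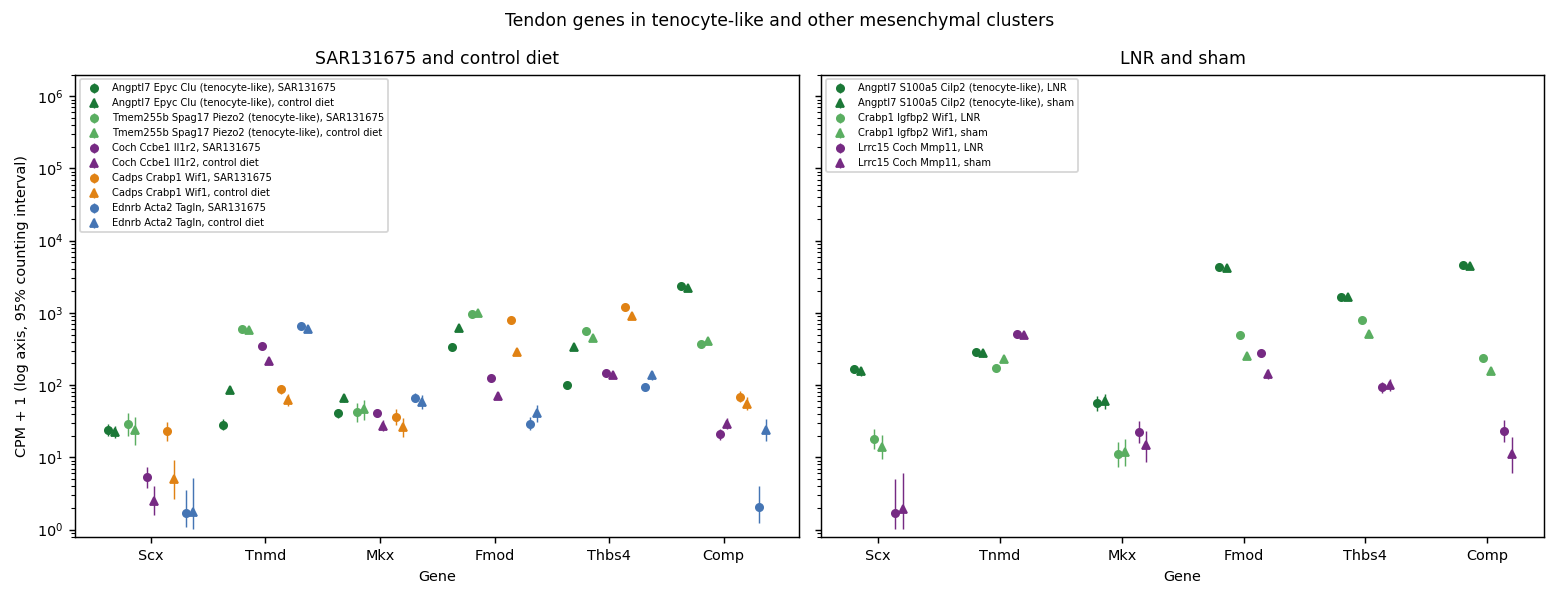
Points give CPM + 1 on a log axis, with 95% counting intervals, for 6 tendon genes in the tenocyte-like clusters and in the mesenchymal clusters with Crabp1, Coch, Lrrc15 or Ednrb among their leading genes, with circles for the treated library and triangles for its control. Fmod and Comp are highest in the tenocyte-like cells of the LNR pair, at 4208 to 4582 CPM, and Tnmd is lower there than in the Lrrc15 cluster.

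Fmod, the collagen-binding proteoglycan, and Thbs4, a thrombospondin of tendon and muscle attachments, were the most closely matched genes of the 10 across named classes. In tenocyte-like cells of the LNR pair, Fmod stood at 4327 (4211 to 4445) CPM in LNR and 4208 (4094 to 4325) CPM in sham, and was seen in 82.6% and 80.3% of thinned cells. Thbs4 stood at 1660 (1589 to 1734) and 1686 (1614 to 1760) CPM there. In tenocyte-like cells of the diet pair levels were lower, with 454 (436 to 472) and 687 (664 to 710) CPM of Fmod and 187 (176 to 199) and 358 (342 to 375) CPM of Thbs4 in SAR131675 and control diet. Thinned to 2000 UMIs, 64.2% of LNR and 61.8% of sham tenocyte-like cells had both Fmod and Thbs4, against 8.77% and 13.8% in SAR131675 and control diet.

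The diet tenocyte-like cells joined unlike groups of cells, and the larger scored higher on the fibroblast markers, which include general collagen genes, than on the tenocyte markers (0.411 against 0.356). At a finer clustering the diet tenocyte-like cells numbered 148 and 174. A sub-cluster of 466 and 462 cells led by Angptl7, Epyc and Clu had 27.2 and 85.6 CPM of Tnmd and 2393 and 2230 CPM of Comp in SAR131675 and control diet. The other, of 91 and 75 cells led by Tmem255b, Spag17 and Piezo2 with Kera behind them, had 601 and 578 CPM of Tnmd and 364 and 409 CPM of Comp. Fmod was 336 and 625 CPM in the larger and 958 and 986 CPM in the smaller sub-cluster. Scx did not tell them apart, with 23.1 and 21.6 CPM in the larger against 28.3 and 22.6 CPM in the smaller. The name of the smaller depended on the setting. A cluster with the same leading genes met no name at the finer clustering (90 and 76 cells), nor without upper limits on genes and UMIs (80 and 73 cells).

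Thbs4 and Fmod were also present in 1 mesenchymal cluster of each pair with Crabp1 and Wif1 among its leading genes, after Cadps in the diet pair (213 and 201 cells) and with Igfbp2 in the LNR pair (549 and 466 cells). Crabp1 and Wif1 are known from the dermal papilla and other skin mesenchyme, and the clusters were found separately and need not be the same cells. Thbs4 stood at 1218 (1168 to 1269) and 894 (850 to 940) CPM in SAR131675 and control diet, the highest level of any diet cluster, and at 793 (756 to 832) and 516 (483 to 550) CPM in LNR and sham. These clusters held 38.1%, 29.8%, 26.3% and 18.1% of all Thbs4 UMIs in the 4 libraries. Fmod there was 785 (745 to 826) and 287 (262 to 313) CPM in the diet pair and 499 (469 to 530) and 255 (232 to 279) CPM in the LNR pair. In the smaller pool of thinned cells with Fmod, 85.7%, 85.0%, 75.0% and 76.2% also had Thbs4. The share of Thbs4 in all thinned cells of these clusters is not set beside this, so that it is a description only. Synovial lining-like cells of the diet pair had fewer than 2 CPM of Fmod and fewer than 1 CPM of Thbs4.

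Comp, a pentameric thrombospondin of cartilage and tendon matrix, was present in most mesenchymal classes. It was highest in osteoblast-like cells, with 3657 (3565 to 3752) and 3462 (3350 to 3577) CPM in SAR131675 and control diet and 5061 (4928 to 5197) and 5119 (4965 to 5275) CPM in LNR and sham. Tenocyte-like cells had 2009, 1919, 4582 and 4499 CPM and chondrocyte-like cells 2898, 2179, 3483 and 3283 CPM. In the LNR pair the intervals of Comp in osteoblast-like and tenocyte-like cells did not overlap, so that the order of these neighbors exceeded counting error. Synovial lining-like cells had 472, 281, 226 and 217 CPM and fibroblast-like cells 295, 239, 438 and 370 CPM. A mesenchymal cluster of the LNR pair led by Epyc, Itih2 and Saa3 held 21.4% of LNR and 20.3% of sham Comp UMIs, at 3252 and 3501 CPM.

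Sox9, the transcription factor of cartilage, was highest per cell class in chondrocyte-like cells, but these held little of it. Chondrocyte-like cells had 1326 (1251 to 1404) and 1634 (1548 to 1724) CPM of Sox9 in SAR131675 and control diet and 1211 (1119 to 1310) and 1874 (1737 to 2018) CPM in LNR and sham. They carried 2.31%, 4.27%, 3.01% and 2.94% of the Sox9 UMIs of their library. The follicle-type cluster led by Gm973, Lgr5 and Lhx2 carried 37.4%, 29.6%, 27.8% and 24.9%, at 894, 726, 894 and 928 CPM. A small LNR-pair keratinocyte cluster led by Pthlh, Rflnb and Krtap17-1 reached 1198 (1079 to 1326) and 1214 (1103 to 1334) CPM, which in LNR could not be set apart from the chondrocyte-like level. Sweat gland-like cells had 453 and 417 CPM of Sox9 and sebaceous-like cells 271 and 263 CPM in the diet pair, whereas basal keratinocyte-like cells had 14.5 CPM in both. Basal keratinocyte-like cells of LNR and sham had 54.1 and 55.4 CPM.

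Acan, the gene of aggrecan and a target of Sox9, was far more restricted. Chondrocyte-like cells had 3173 (3056 to 3292) and 4043 (3907 to 4182) CPM in SAR131675 and control diet and 3347 (3192 to 3508) and 3355 (3172 to 3547) CPM in LNR and sham, and held 62.6%, 78.8%, 59.8% and 61.8% of all Acan UMIs. Every other named class lay below 80 CPM. After thinning, 71.3%, 78.4%, 60.7% and 63.6% of chondrocyte-like cells had both Sox9 and Acan. In the follicle-type keratinocytes with high Sox9, Acan was 1.65, 0.619, 0.459 and 0.315 CPM, so that high Sox9 did not go with Acan there. In Schwann-like cells of SAR131675 there were 132 UMIs of Acan, in 0.987% of 304 cells, against 0 UMIs in 186 control diet cells.

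Prg4, the gene of lubricin, took up about 14% of all transcripts in synovial lining-like cells. Its level there was 144954 (144652 to 145257) CPM in SAR131675, 140997 (140669 to 141326) CPM in control diet, 143398 (143078 to 143719) CPM in LNR and 145648 (145326 to 145972) CPM in sham. These cells were 392 of 29076, 344 of 24030, 651 of 19827 and 660 of 20669 kept cells, and carried 87.1%, 88.1%, 78.7% and 77.8% of all Prg4 UMIs. Single cells varied widely. The quartiles of Prg4 UMIs per synovial lining-like cell were 299 and 3645 in SAR131675, 348 and 2962 in control diet, 358 and 1692 in LNR and 429 and 1710 in sham, and in the cell with the highest share Prg4 made up 37.7%, 42.7%, 39.9% and 42.4% of its UMIs.

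Chondrocyte-like cells came next for Prg4 among named classes, at 51305, 63807, 45182 and 49675 CPM in SAR131675, control diet, LNR and sham. Of thinned chondrocyte-like cells, 81.6%, 95.5%, 83.2% and 83.1% had both Acan and Prg4. In SAR131675 Acan itself was seen in 85.1% of them, close to the joint share, so that the joint shares are a description only. Tenocyte-like cells had 1451 and 2471 CPM of Prg4 in the diet pair and 7512 and 8278 CPM in the LNR pair. A diet mesenchymal cluster of 59 and 21 cells led by Krt2, Ly6d and Krt10, keratinocyte genes, had 82056 and 36158 CPM of Prg4.

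Prg4 was also seen outside the mesenchyme, and whether this was free RNA, mixed droplets or expression was not tested. Keratinocyte clusters had 42.1, 72.6, 64.0 and 61.2 CPM, and a Prg4 UMI was seen in 26.6%, 19.3%, 29.9% and 26.9% of keratinocytes, or in 5.15%, 4.32%, 8.49% and 7.95% at 2000 UMIs. Immune clusters had 79.7 and 26.4 CPM of Prg4 in the diet pair but 3978 and 2550 CPM in the LNR pair. In LNR and sham the neutrophil-like cells had 17274 and 8452 CPM, although the median neutrophil-like cell had 0 UMIs of Prg4 and the highest had 3242 and 1895. The neutrophil-like cells of the diet pair had at most 2 UMIs of Prg4 in a cell. The neutrophil-like levels of Prg4 in the LNR pair thus rested on a minority of barcodes.

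**Figure D4:**
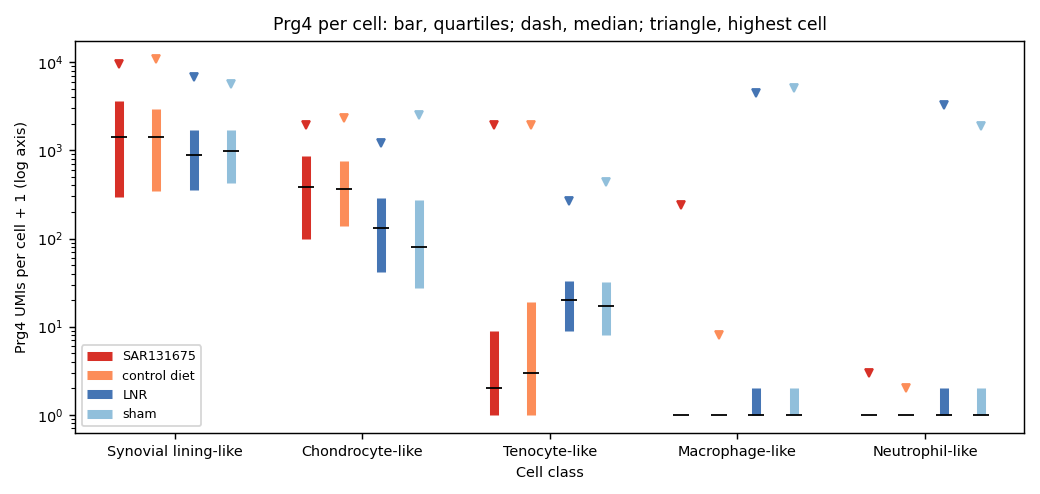
The plot gives Prg4 UMIs per cell plus 1 on a log axis for 5 classes and 4 libraries, with bars from the lower to the upper quartile, dashes at the median and triangles at the highest cell. Macrophage-like and neutrophil-like cells have a median of 0 UMIs in all libraries, and in LNR and sham their highest cells lie between 1895 and 5096 UMIs.

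Htra4, a secreted protease, followed Prg4 in the synovial lining but not in cartilage. Synovial lining-like cells had 4009 (3958 to 4059) and 3785 (3731 to 3839) CPM of Htra4 in SAR131675 and control diet and 3355 (3306 to 3404) and 3384 (3335 to 3433) CPM in LNR and sham. They held 90.6%, 93.6%, 75.0% and 75.3% of all Htra4 UMIs. Thinned to 2000 UMIs, 90.1%, 89.7%, 84.3% and 85.8% of these cells had both Prg4 and Htra4. The shares of each gene by itself are not set beside these, so that they are a description only. In chondrocyte-like cells, where Prg4 was high, Htra4 was only 68.8 (52.6 to 88.3) and 47.1 (33.5 to 64.4) CPM in the diet pair and 91.9 (67.7 to 122) and 172 (132 to 220) CPM in the LNR pair. Tenocyte-like cells lay in the same range, at 62.7 to 84.2 CPM, and keratinocyte clusters at 1.53 to 3.40 CPM.

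Genes most like each of the 10 were ranked by Pearson's r of log2(CPM + 10) over 72 units, each a named class of at least 50 cells in 1 library, among 19633 genes. The units share libraries, depth and cell types, so that r is a description. Clusters without a class name had no part in it. Among these were the follicle-type cluster rich in Scx and Sox9, the clusters with the highest Tnmd, and those with Crabp1 and Wif1. For Fmod the closest genes were Thbs4 (r = 0.94), Cilp2 (0.90) and Ptgis (0.89), and for Thbs4 they were Fmod, Epyc (0.87) and Thbs2 (0.86). Comp was closest to Ptgis (0.96), Dcn (0.93) and Lox (0.91). Dcn encodes the proteoglycan decorin and Lox an enzyme that cross-links collagen. Acan was closest to Stc2 (0.96), Fzd9 (0.95) and Col9a2 (0.94). Of these genes Cilp2, Epyc, Dcn and Col9a2 were markers used to name classes, so that their match is not independent of the names.

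Prg4 and Htra4 were each among the closest 3 of the other (r = 0.89). Prg4 was further followed by Fbln7 (0.87) and Ccn2 (0.85), and Htra4 by Fbln7 (0.91) and Gm17455 (0.90). Tnmd was closest to Wfdc1 (0.85), Fbln1 (0.83) and Mettl24 (0.82), and Mkx to Galnt5 (0.87), Col8a2 (0.87) and Pdgfrl (0.85). Scx was closest to 4933400C23Rik (0.88), Gm12827 (0.87) and S100a5 (0.87), of which the first 2 had 257 and 205 UMIs in all. Sox9 had the weakest match, to Mia (0.71), Ppp1r1b (0.71) and Snorc (0.69), the last a marker used to name the chondrocyte-like cells.

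SAR131675 and control diet were compared in mesenchymal cells to ask whether the inhibitor went with other levels of these genes. None of the 10 genes differed by as much as 2-fold, against 0.984% of the 14127 genes with at least 100 UMIs in the pair, so that a count of 0 is near what the background gives. The median log2 ratio of the 10 genes was 0.07, with 7 higher and 3 lower in SAR131675. Over all genes the median was -0.02, with 6684 of 14127 higher. The farthest were Scx, at 7.19 against 4.58 CPM (log2 ratio 0.65, interval 0.38 to 0.92), Tnmd, at 114 against 82.9 CPM (0.47, 0.40 to 0.53), and Acan, at 79.2 against 104 CPM (-0.40, -0.46 to -0.33). Thbs4 stood at 115 against 130 CPM (-0.17, -0.23 to -0.11) and Comp at 629 against 569 CPM (0.15, 0.12 to 0.17). Fmod, Mkx, Sox9, Prg4 and Htra4 lay between -0.08 and 0.10, and the sign of Fmod, Mkx, Sox9 and Prg4 turned under at least 1 other choice of cells or depth. In tenocyte-like cells, its leading named class, Scx was close between the libraries (0.15, -0.23 to 0.53), while it was 22.3 against 4.02 CPM in the cluster led by Cadps, Crabp1 and Wif1 and 8.05 against 2.99 CPM in synovial lining-like cells, on 41 and 7 and on 49 and 15 UMIs. The Ednrb, Acta2 and Tagln cluster, where Tnmd was highest, made up 4.81% of mesenchymal cells in SAR131675 and 2.96% in control diet, and its part in the Tnmd ratio was not tested.

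**Figure D5:**
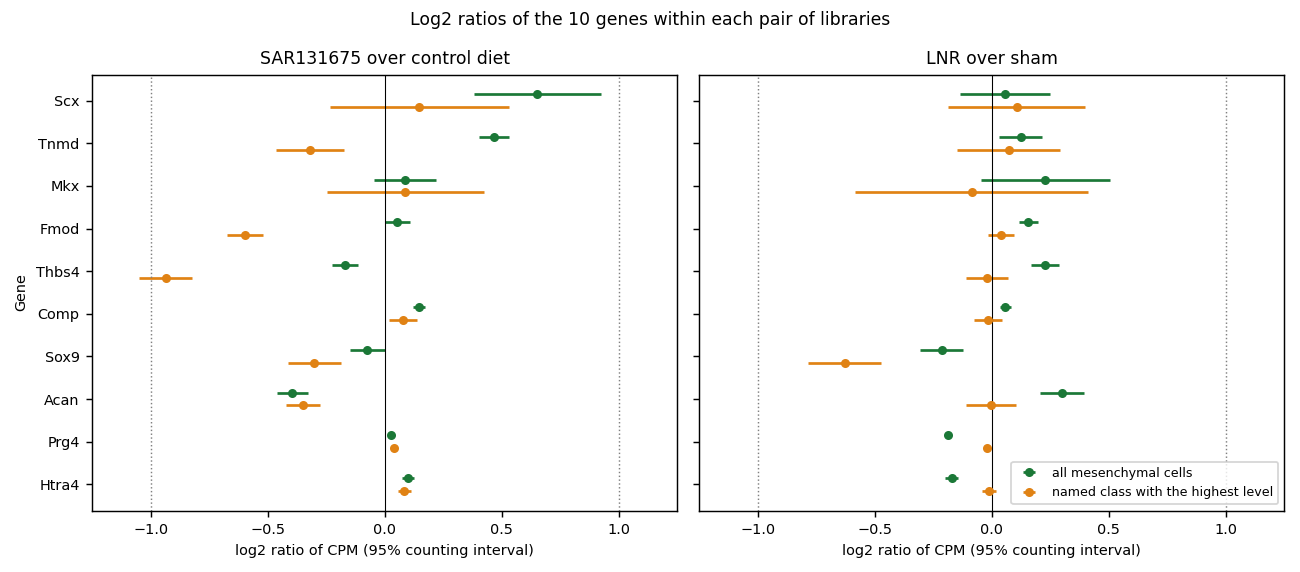
Points give the log2 ratio of CPM with its 95% counting interval for each gene, SAR131675 over control diet on the left and LNR over sham on the right, in all mesenchymal cells (green) and in the named class with the highest level of the gene (orange). All points lie within the dotted lines at 2-fold, and in the diet pair Thbs4 is lowest, at -0.94 in tenocyte-like cells.

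These ratios hid unlike differences within classes of the diet pair. Ratios within a class, in either pair, are given without the share of all genes past 2-fold in that class. They were taken from many classes and are descriptions only. In tenocyte-like cells Fmod was lower in SAR131675 than in control diet (log2 ratio -0.60, -0.67 to -0.52), as were Thbs4 (-0.94, -1.05 to -0.82), Mkx (-0.62, -0.88 to -0.37) and Prg4 (-0.77, -0.81 to -0.73). Tnmd was lower there as well (-0.32, -0.46 to -0.17), against its direction in all mesenchymal cells. In the cluster led by Cadps, Crabp1 and Wif1 both Fmod (1.45, 1.30 to 1.60) and Thbs4 (0.45, 0.35 to 0.54) were higher in SAR131675. The lower Fmod and Thbs4 values were those of the larger sub-cluster, where Thbs4 was 97.8 against 339 CPM, while in the smaller it was 569 against 453 CPM. The summed level of the 8 tenocyte markers used for naming moved the same way, at 2444 against 3422 CPM, and its part in the differences was not tested. Few cells carried these transcripts. In the diet pair 11 tenocyte-like cells, 1% of the class, held 39.1% of its Thbs4 UMIs and 20.3% of its Fmod UMIs, so that the spread between cells is wider than the counting interval.

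Chondrocyte-like and osteoblast-like cells of the diet pair differed in single genes. Acan and Sox9 were lower in SAR131675 chondrocyte-like cells than in those of control diet (-0.35, -0.42 to -0.28, and -0.30, -0.42 to -0.19), and Comp was higher (0.41, 0.32 to 0.50). Fmod was higher there too, at 353 against 94.2 CPM (1.91, 1.54 to 2.28), from 313 and 78 UMIs in 90 cells each. The 12 chondrocyte markers summed to 10571 against 13831 CPM and the 10 osteoblast markers to 6266 against 4467 CPM in these cells, and their part was not tested. In osteoblast-like cells Thbs4 (0.63, 0.33 to 0.93) and Tnmd (0.88, 0.34 to 1.45) were higher and Acan lower (-1.40, -1.94 to -0.86), the last on 48 against 81 UMIs. A UMI of Acan was seen in 11.2% and 10.0% of these cells, and 4 cells held 55.0% of its UMIs over both libraries, so that the Acan difference rested on few barcodes. Prg4 and Htra4 in synovial lining-like cells differed little (0.04, 0.04 to 0.04, and 0.08, 0.06 to 0.11), whereas Comp in those cells was 472 against 281 CPM (0.75, 0.66 to 0.84).

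Removal of lymph nodes was compared with the sham limb in the same way. None of the 10 genes differed by 2-fold in mesenchymal cells, against 0.257% of 12052 genes. The median log2 ratio was 0.09, with 7 genes higher and 3 lower in LNR. Over all genes the median was 0.02, with 6804 of 12052 higher. Acan stood at 81.3 against 66.1 CPM (0.30, 0.21 to 0.39), Thbs4 at 200 against 171 CPM (0.23, 0.17 to 0.29) and Fmod at 373 against 335 CPM (0.16, 0.11 to 0.20). Sox9 (-0.21, -0.31 to -0.12), Prg4 (-0.19, -0.19 to -0.18) and Htra4 (-0.17, -0.20 to -0.14) were lower in LNR, but in all kept cells, which include the unnamed cluster led by Msmp, Prg4 stood at 0.04 and Htra4 at 0.07. In their leading classes most of these were closer to 0, with Acan at 0.00 (-0.11 to 0.10) in chondrocyte-like cells, Fmod at 0.04 (-0.02 to 0.10) and Thbs4 at -0.02 (-0.11 to 0.07) in tenocyte-like cells, and Prg4 at -0.02 (-0.03 to -0.02) and Htra4 at -0.01 (-0.04 to 0.02) in synovial lining-like cells.

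Cell numbers of the leading classes differed too, and not always in the direction of the ratio. Chondrocyte-like cells were 1.99% of mesenchymal cells in LNR and 1.48% in sham, where Acan was higher in LNR, and synovial lining-like cells were 11.0% and 12.4%, where Prg4 and Htra4 were lower. Tenocyte-like cells were 6.55% in LNR and 7.73% in sham, where Fmod and Thbs4 were higher in LNR. The part of cell numbers in the ratios was not tested. Sox9 was lower in LNR chondrocyte-like cells themselves (-0.63, -0.79 to -0.47), at 1211 against 1874 CPM in 117 and 79 cells, in which the 12 chondrocyte markers summed to 18375 and 19673 CPM. In the LNR-pair cluster led by Crabp1, Igfbp2 and Wif1, Fmod (0.97, 0.81 to 1.13) and Thbs4 (0.62, 0.51 to 0.74) were higher in LNR than in sham.

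Prg4 in classes outside the joint was unequal within the LNR pair. It was 3234 against 865 CPM in LNR and sham osteoblast-like cells (1.90, 1.79 to 2.02) and 170 against 234 CPM in fibroblast-like cells (-0.46, -0.57 to -0.34). The 6 synovial lining markers summed to 242 and 138 CPM in the osteoblast-like cells of LNR and sham, and their part was not tested. Fmod and Thbs4 were also higher in LNR in synovial lining-like cells, at 25.9 against 5.40 CPM for Fmod (2.26, 1.68 to 2.89) and 22.7 against 7.83 CPM for Thbs4 (1.54, 1.02 to 2.08). The 8 tenocyte markers summed to 96.9 and 45.5 CPM there. Thinned to 2000 UMIs, a UMI of Fmod was seen in 1.75% and 0.617% of these cells in LNR and sham and in 1.77% and 2.05% of immune cells.

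Of 48 further genes of tendon, proteoglycan, thrombospondin, chondrocyte and joint pathways, 46 in the diet pair and 46 in the LNR pair had at least 100 UMIs in mesenchymal cells, of which 45 were shared. In the list of tendon differentiation and signaling, 9 of 13 measured genes were higher in SAR131675 and 10 of 13 higher in LNR, with medians of 0.06 in both. Over all genes, 6684 of 14127 were higher in SAR131675 and 6804 of 12052 in LNR. Among the genes measured in each pair, Gdf6, a growth factor of tendon and joint, was the only one past 2-fold, at 2.31 against 1.09 CPM in SAR131675 and control diet (log2 ratio 1.08, 0.55 to 1.64) on few UMIs, and it was below 100 UMIs in the LNR pair. Tnc, the matrix protein tenascin C, had the next highest ratio in both pairs, after Gdf6 and Cytl1, at 92.3 against 68.9 CPM in SAR131675 (0.42, 0.35 to 0.49) and 75.2 against 58.0 CPM in LNR (0.37, 0.27 to 0.47).

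The small leucine-rich proteoglycans, the family of Fmod, were divided, with 3 of 6 higher in SAR131675 and 2 of 6 higher in LNR and medians of 0.07 and -0.02. Thrombospondins and their partners had 3 of 8 higher in SAR131675 and 4 of 8 in LNR, with medians of -0.10 and 0.01. Genes of chondrocyte transcription and matrix had 3 of 9 higher in SAR131675 and 4 of 9 in LNR. At the low end stood Sox6, a partner of Sox9, in LNR (-0.29, -0.53 to -0.05), and the joint factor Gdf5, on 52 and 59 UMIs (-0.37, -0.94 to 0.19).

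Joint lining genes had 4 of 10 higher in SAR131675 and 10 of 10 higher in LNR, with medians of -0.08 and 0.06, beside 6684 of 14127 and 6804 of 12052 over all genes. In LNR the intervals of 6 of these 10 (Htra1, Htra3, Erg, Has2, Wnt9a and Nog) included 0. Cytl1, a cytokine-like protein of cartilage, was lowest of the 46 measured pathway genes in the diet pair, at 521 against 744 CPM (-0.51, -0.54 to -0.49), and highest in the LNR pair, at 616 against 459 CPM (0.42, 0.39 to 0.46). Wnt9a, a joint signal, was next lowest in the diet pair (-0.33, -0.47 to -0.19). Within each pair the differences of the measured pathway genes were below 2-fold apart from Gdf6 in SAR131675.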

How the data were processed

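For each library the authors deposited a matrix of unnormalized counts, in UMIs, with genes as rows and barcodes as columns. The labels name Cell Ranger 6.1.2 and GRCm39 for all of them, while the matrix headers give 6.1.2 for the LNR pair and 8.0.1 for the diet pair. The study's text places the libraries at 8 days after amputation, and 1 figure legend gives another day for the diet pair. Barcodes with 200 to 5500 genes, at most 30000 UMIs and at most 10% mitochondrial UMIs were kept, and no doublet caller was run. Each pair was clustered in scanpy 1.11.5 (2000 variable genes without the 10 genes, 30 principal components, 20 neighbours, Leiden resolution 0.7), and mesenchymal clusters were clustered again. Clusters were named from marker lists, by a rule tuned after the clusters were seen. The genes and lists were chosen with earlier results of these data known. UMIs were summed per class and library. Intervals are exact Poisson for CPM, Clopper-Pearson for shares and exact conditional for log2 ratios (scipy 1.17.1). For the comparisons with 2-fold counts, genes needed 100 UMIs in a pair. For shares between depths, cells were thinned to 2000 UMIs, leaving out shallower cells. Named genes were the 10 genes, the 3 most alike of each, the 2 highest and 2 lowest pathway genes per pair and any past 2-fold in both. On counts simulated as Poisson, which the intervals assume, 95.6% of intervals for 14112 genes of the diet pair held the true ratio. For 12057 genes of the LNR pair it was 95.2%. The simulation had no spread between cells or mice and checks the computation only. Coordinates and promoters are of GRCm38.p6 (RefSeq), and gene overlaps of GENCODE on the same assembly, which differs from the build of the counts.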

Additional observations from a re-analysis of the deposited data

How the results depend on the processing

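No paired analysis was possible because each group was 1 library, and for the same reason no library could be left out. The median log2 ratio of the 10 genes in LNR over sham, 0.09 in mesenchymal cells, was 0.28 in all kept cells and -0.014 in the named class with the highest level of each gene. In SAR131675 over control diet it was 0.07 in mesenchymal cells, -0.13 in that named class, and -0.55 without barcodes that carried markers of 2 compartments, where 1 gene, Comp, passed 2-fold in the opposite direction (-1.88). That last setting left 62 of 4530 SAR131675 and 83 of 3915 control diet mesenchymal cells and measured only 2 of the 10 genes. The number of all genes past 2-fold was 139 in the diet pair and 31 in the LNR pair, 664 and 290 with a limit of 20 UMIs, 49 and 14 after thinning to 2000 UMIs, and 208 and 83 in all kept cells. Single log2 ratios of the 10 genes left their counting interval in 15 of 20 cases in the named class, 13 of 20 in all kept cells, 13 of 19 after thinning, 9 of 20 with classes set per cell, 9 of 20 without upper limits on genes and UMIs, 4 of 20 at a Leiden resolution of 1.2, and 11 of 11 without barcodes of 2 compartments. Adding the mixed clusters, an alternative chosen after seeing the data, moved 4 of 10. Signs turned as well. In the diet pair Fmod and Sox9 each kept their sign in 2 of 7 alternatives (Fmod -0.60 to 0.04, Sox9 -0.30 to 0.33), Prg4 in 6 of 8, Comp in 7 of 8, Mkx in 6 of 7, and Tnmd in 6 of 7 (-0.32 in its named class). In the LNR pair Comp and Prg4 kept theirs in 5 of 7, Mkx in 5 of 6, and Scx, Tnmd, Thbs4, Acan and Htra4 in 6 of 7. Shares of a gene's UMIs moved in 36 of 40 cases with classes set per cell, 38 of 40 without upper limits, 38 of 40 without barcodes of 2 compartments and 18 of 40 at the other resolution. Levels by class moved in 150 of 190 cases with classes set per cell, 51 of 70 without barcodes of 2 compartments, 85 of 220 without upper limits and 72 of 200 at the other resolution.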
